A study of Mus musculus with 24 samples.

Results

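The transcripts described here come from 30 genes of cholesterol synthesis and of the sterol regulatory element binding protein 2 (SREBP2) system, measured in mouse liver by RNA sequencing. They were taken by gene name from a list of sterol pathway enzymes, SREBP machinery and its targets, and all 30 were found among the 24137 genes of the joined tables. They comprised 8 enzymes of the mevalonate and isoprenoid steps, 11 enzymes from squalene to cholesterol, 6 genes of the SREBP machinery, and 5 other SREBP targets or sterol handling genes. The study held 24 livers of adult mice, 1 library each, in 5 groups.

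Mice of HF_TZD_KO (n = 5) were labelled as hepatocyte-specific PPARγ knockouts and ate the HFCF diet, with rosiglitazone maleate (the thiazolidinedione, TZD, of the group name) in it for the last 8 weeks. HF_TZD_C (n = 5) were control mice given the same diet and drug. HF_KO (n = 5) were labelled as knockouts and HF_C (n = 5) were controls, both on the HFCF diet without drug. All 4 of these groups were on HFCF for 34 weeks and carry the label non-alcoholic steatohepatitis. In both knockout groups the deletion was induced after 24 weeks of diet and lasted 10 weeks. LF_C (n = 4) were control mice on the LFCF diet, labelled healthy. The labels do not say what drove the deletion in hepatocytes, nor the strain, sex or exact age of the mice. RNA was taken from whole liver, so cells other than hepatocytes contributed to every value.

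Hepatocytes make cholesterol from acetyl-CoA through mevalonate, farnesyl diphosphate and squalene, and the liver is a main site of this synthesis in the body. The pathway is under feedback control: when membranes of the endoplasmic reticulum hold little sterol, SCAP carries SREBP2 to the Golgi, where the site-1 and site-2 proteases (Mbtps1 and Mbtps2) release its transcription factor domain. That domain enters the nucleus and binds sterol regulatory elements in front of genes of the pathway. When sterol is plentiful, the INSIG proteins hold SCAP in the endoplasmic reticulum.

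Libraries held 19502150 to 28742638 counted reads, and the smallest count of any of the 30 genes in any library was 124 (Mvd). Pparg, the targeted gene, did not show lower counts in the libraries labelled knockout. It gave 56.0, 38.9, 62.0, 44.3 and 31.7 CPM (read counts scaled for library size) in HF_TZD_KO, against 24.5, 25.5, 30.6, 26.5 and 27.7 CPM in HF_TZD_C. Without the drug it gave 60.6, 57.7, 70.2, 68.8 and 63.3 CPM in HF_KO, against 32.9, 33.7, 35.5, 28.3 and 31.8 CPM in HF_C, and LF_C livers lay at 10.0 to 18.4 CPM. Every library labelled knockout was thus above every control library on the same treatment. A sum of reads over the whole gene does not show whether an exon was deleted, so directions below are those between libraries labelled knockout and libraries labelled control.

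Some libraries stood apart in the sterol genes. Replicate 2 of HF_C was the highest of its group in 25 of the 30 genes, and its mean deviation from the average of all libraries was 0.18 on the log2 CPM scale, against -0.61 to -0.31 in the other HF_C libraries. Replicate 4 of LF_C was the lowest of its group in 24 genes, with a deviation of -0.19 against 0.15 to 0.64 in the other LF_C libraries. In HF_TZD_KO, replicate 4 was highest in 20 genes and replicate 1 lowest in 21, and in HF_KO replicate 2 was lowest in 22. Counts and medians that moved most when one of these libraries was left out are given with and without it.

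**Figure D1:**
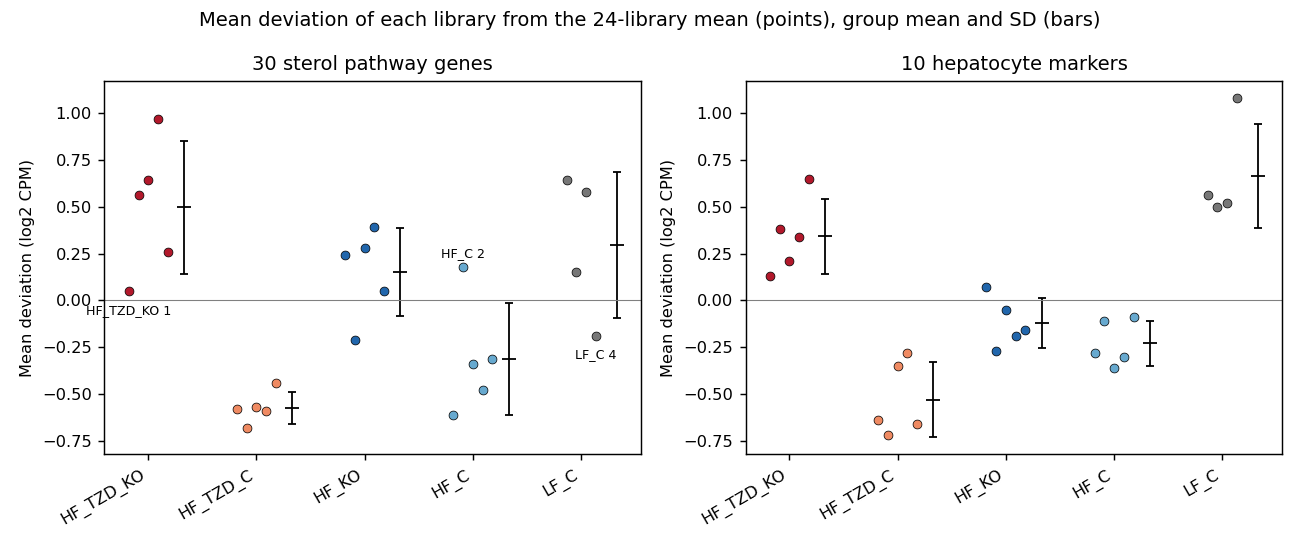
Mean deviation of each library from the average of the 24 libraries (log2 CPM, vertical axis), for the 30 sterol genes (left) and for 10 hepatocyte marker genes (right). Points are libraries and bars are group means with SD; HF_TZD_C libraries lie between -0.68 and -0.44 and HF_TZD_KO libraries between 0.05 and 0.97 for the sterol genes.

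Set per kilobase of transcript, on the FPKM scale deposited by the authors, the 30 genes spanned a wide range of levels. In HF_TZD_KO livers the highest was Fdps, which makes farnesyl diphosphate, at 316 ± 138 FPKM (SD, n = 5), followed by Sc5d, the sterol C5 desaturase, at 238 ± 41.3 FPKM. In HF_TZD_C livers Sc5d led at 151 ± 8.31 FPKM, followed by Insig2 at 110.0 ± 25.2 FPKM and Fdps at 90.4 ± 27.9 FPKM. The site-2 protease gene Mbtps2 was the lowest in both groups, at 2.99 ± 0.308 FPKM in HF_TZD_KO and 3.37 ± 0.564 FPKM in HF_TZD_C. Sqle, encoding squalene epoxidase, an oxygen-dependent and rate-limiting step, had 16.5 ± 8.23 FPKM in HF_TZD_KO, 3.47 ± 0.524 in HF_TZD_C, 12.4 ± 3.97 in HF_KO, 6.13 ± 2.75 in HF_C and 11.5 ± 6.27 in LF_C.

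By mean CPM, HF_TZD_KO was the highest of the 5 groups for 20 genes and HF_TZD_C the lowest for 23. LF_C was highest for 5 genes, namely Acat2, Tm7sf2, Hsd17b7, Ebp and Scap. The groups also differed in how much their mice varied: the median coefficient of variation over the 30 genes was 30.8% in HF_TZD_KO, 11.2% in HF_TZD_C, 17.6% in HF_KO, 25.2% in HF_C and 29.0% in LF_C. Every comparison below sets a pair of these groups side by side, and several share a group, so their results are not independent of each other.

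**Figure D2:**
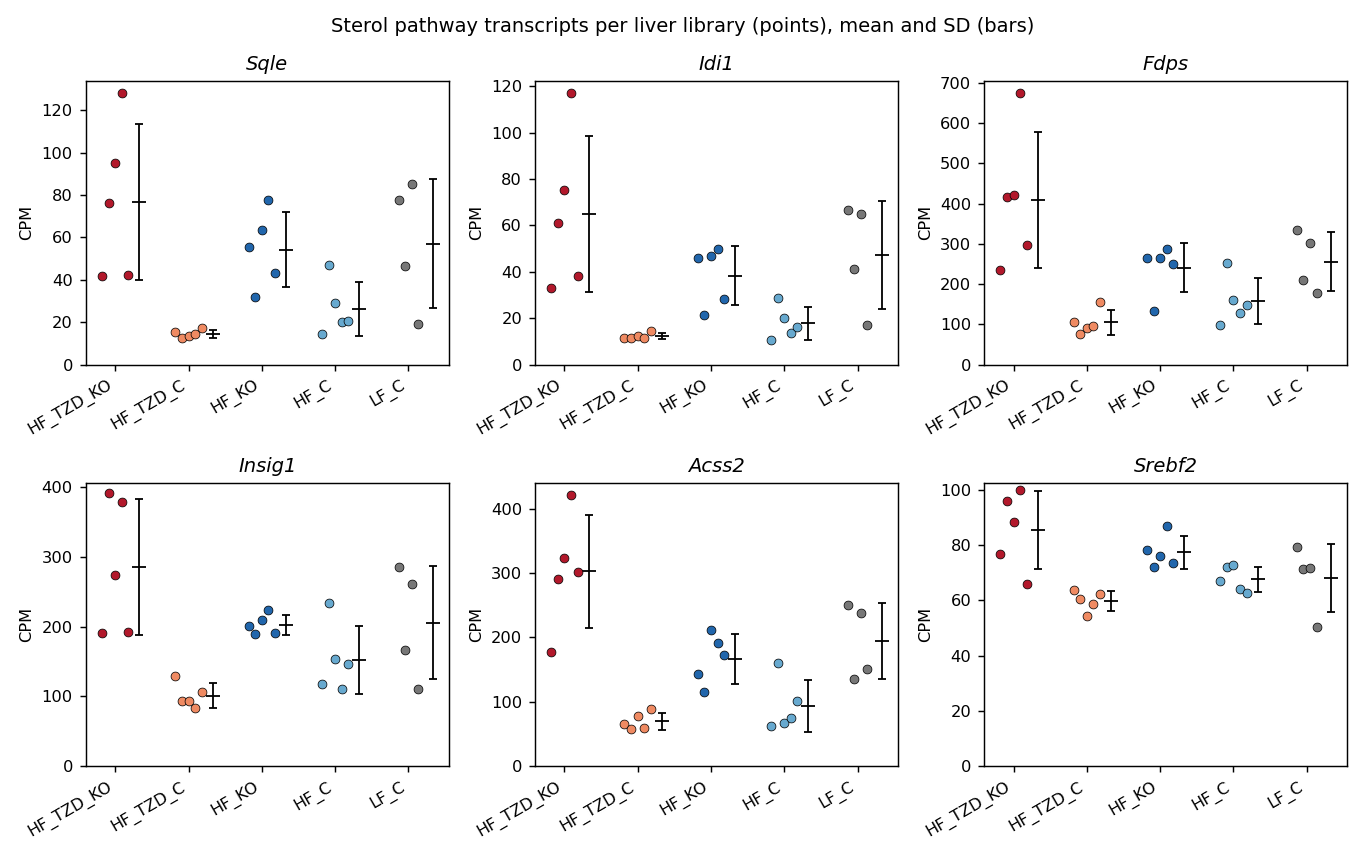
CPM (vertical axis, from 0) of Sqle, Idi1, Fdps, Insig1, Acss2 and Srebf2 in each library, by group. Points are livers and bars are group means with SD; the 5 HF_TZD_KO livers lie above the 5 HF_TZD_C livers in each of these 6 genes, with Srebf2 the closest (lowest HF_TZD_KO liver 65.7 CPM, highest HF_TZD_C liver 63.8 CPM).

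The comparison of HF_TZD_KO with HF_TZD_C addressed the effect of the knockout in mice with diet-induced steatohepatitis given rosiglitazone, and it held the broadest difference in the sterol genes. Of the 30 genes, 24 were higher in HF_TZD_KO and 0 lower (edgeR quasi-likelihood test, Benjamini-Hochberg adjusted p under 0.05 over 14602 genes). Of all genes tested, 8.53% were higher in HF_TZD_KO and 7.81% lower. The 30 genes were listed with earlier results of these data known, so the contrast with all genes is descriptive. The median log2 fold change was 1.17 over the 30 genes and 0.00 over all genes tested. In 23 of the 24, every HF_TZD_KO liver lay above every HF_TZD_C liver, a pattern found in 6.93% of all genes tested; Acat2 was the exception.

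Among the mevalonate and isoprenoid enzymes, 7 of 8 rose. Idi1 (chr13:8885501-8892451 of GRCm38), the isopentenyl diphosphate isomerase, had 33.2, 61.2, 75.1, 117 and 38.3 CPM in HF_TZD_KO livers, against 11.5, 11.3, 12.4, 11.6 and 14.6 CPM in HF_TZD_C livers. Its lowest HF_TZD_KO liver was above the highest HF_TZD_C liver by a wide margin, and the log2 fold change was 2.40 (SE 0.29, adjusted p 1.4e-04). Fdps (chr3:89093592-89101967) had 234, 417, 421, 675 and 297 CPM in HF_TZD_KO, against 106, 75.0, 90.5, 96.2 and 156 CPM in HF_TZD_C, with log2 fold change 1.97 (SE 0.27, adjusted p 3.2e-04). Mvd, the mevalonate diphosphate decarboxylase, had 12.3, 24.4, 22.2, 46.8 and 11.9 CPM in HF_TZD_KO and 6.76, 7.02, 6.24, 5.75 and 7.34 CPM in HF_TZD_C (log2 fold change 1.83, SE 0.32, adjusted p 0.00196). Replicate 4 of HF_TZD_KO was the highest liver in all 3 of these genes.

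The remaining steps before farnesyl diphosphate moved less. Pmvk, phosphomevalonate kinase, rose by 1.45 (SE 0.20) on the log2 scale and Mvk, mevalonate kinase, by 1.08 (SE 0.20). Hmgcs1, the cytosolic HMG-CoA synthase that SREBP2 controls, had 219, 314, 390, 554 and 201 CPM in HF_TZD_KO, against 168, 150, 176, 196 and 165 CPM in HF_TZD_C, so the groups came close without overlapping (log2 fold change 0.97, SE 0.23, adjusted p 0.0128). Acat2, the cytosolic acetoacetyl-CoA thiolase, had 60.6 to 121 CPM in HF_TZD_KO and 50.7 to 62.2 CPM in HF_TZD_C and rose by 0.61 (SE 0.15, adjusted p 0.0134); this call was lost when libraries were scaled by their totals alone. Acat2 has a close paralog, Acat3, and reads shared by the pair may have been split or dropped in the authors' counting.

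Ggps1 did not follow the others. It encodes the enzyme that extends farnesyl diphosphate to geranylgeranyl diphosphate, away from the sterol branch, and had 9.18, 9.23, 9.18, 8.75 and 9.03 CPM in HF_TZD_KO against 8.62, 8.89, 10.1, 8.45 and 9.83 CPM in HF_TZD_C. The log2 fold change was -0.01 with an SE of 0.09 (adjusted p 0.948), and the groups overlapped. Exons of Ggps1 share 257 bases with Arid4b on the opposite strand, which these unstranded libraries cannot separate.

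All 11 enzymes from squalene to cholesterol rose, by log2 fold changes of 0.73 to 2.41. Sqle (ENSMUSG00000022351, chr15:59315077-59331192) changed most, with 41.7, 76.0, 95.2, 128 and 42.3 CPM in HF_TZD_KO, against 15.2, 12.3, 13.3, 14.2 and 17.4 CPM in HF_TZD_C (log2 fold change 2.41, SE 0.28, adjusted p 1.1e-04). The HF_TZD_C livers were tightly grouped and the HF_TZD_KO livers widely spread, all of them higher. Cyp51, the lanosterol 14α-demethylase, had 72.7, 125, 167, 235 and 104 CPM in HF_TZD_KO, against 33.2, 36.1, 38.8, 40.6 and 48.4 CPM in HF_TZD_C (log2 fold change 1.84, SE 0.26). Nsdhl, a sterol 4-carboxylate dehydrogenase of the C4 demethylation complex, had 42.2, 62.3, 66.9, 90.6 and 47.6 CPM in HF_TZD_KO, against 15.6, 16.8, 15.8, 18.9 and 21.0 CPM in HF_TZD_C (log2 fold change 1.82, SE 0.18, adjusted p 3.6e-05).

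The other members of the C4 demethylation steps gave similar shifts. Msmo1, the methylsterol monooxygenase, rose by 1.80 (SE 0.29) and Hsd17b7, a 3-ketosteroid reductase, by 1.27 (SE 0.18). Tm7sf2, a sterol C14 reductase, had 73.7, 106, 116, 133 and 111 CPM in HF_TZD_KO and 34.9, 27.8, 40.8, 33.6 and 32.5 CPM in HF_TZD_C; its log2 fold change of 1.67 (SE 0.14) carried the smallest adjusted p of the 30 genes, 1.2e-05. Tm7sf2 shares 532 exonic bases with Vps51 on the same strand. Dhcr7, the last step of one branch, rose by 1.44 (SE 0.16), and Lss, lanosterol synthase, by 1.39 (SE 0.21).

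The smallest shifts among the sterol enzymes were those of Fdft1 at 0.91 (SE 0.18), Sc5d at 0.82 (SE 0.11) and Ebp at 0.73 (SE 0.11) on the log2 scale. Fdft1, squalene synthase, commits farnesyl diphosphate to sterols. Its exons share 774 bases with Ctsb on the opposite strand, which averaged 957 CPM over all libraries against 85.6 CPM for Fdft1, and its count is uncertain to that extent. Ebp, the sterol Δ8-Δ7 isomerase, had 135, 165, 160, 165 and 209 CPM in HF_TZD_KO and 97.7, 84.3, 112, 106 and 104 CPM in HF_TZD_C, and replicate 5 of HF_TZD_KO, which ranked low for Sqle and Idi1, was its highest liver.

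Within the SREBP machinery, 3 of 6 genes rose. Insig1 (chr5:28071363-28078662), itself an SREBP target, had 191, 391, 274, 379 and 193 CPM in HF_TZD_KO, against 129, 93.3, 94.2, 83.3 and 106 CPM in HF_TZD_C (log2 fold change 1.5, SE 0.21, adjusted p 4.0e-04). Its paralog Insig2, which in liver is also made from an insulin-repressed transcript, had 334, 119, 298, 233 and 293 CPM in HF_TZD_KO and 236, 223, 294, 395 and 242 CPM in HF_TZD_C, with full overlap (log2 fold change -0.12, SE 0.24, adjusted p 0.781). Scap, the sterol-sensing escort, had 88.6, 123, 132, 127 and 128 CPM in HF_TZD_KO against 81.7, 71.3, 77.0, 76.2 and 76.2 CPM in HF_TZD_C (log2 fold change 0.65, SE 0.10, adjusted p 6.7e-04).

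Srebf2 (chr15:82147266-82205376), the gene of SREBP2, rose by 0.51 (SE 0.11, adjusted p 0.00582), with 76.7, 95.7, 88.3, 100 and 65.7 CPM in HF_TZD_KO and 63.8, 60.4, 54.4, 58.7 and 62.1 CPM in HF_TZD_C. The margin between the groups was small, and scaling by library totals alone ended this call. The proteases of SREBP processing did not pass the test: Mbtps1 had a log2 fold change of -0.10 (SE 0.07) and Mbtps2 of 0.00 (SE 0.12). With totals alone, Mbtps1 was called lower in HF_TZD_KO. These are transcript levels, and neither the cleavage of SREBP2 nor its amount in the nucleus was measured.

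Of the other targets, 3 of 5 rose. Acss2 (ENSMUSG00000027605, chr2:155517948-155585724), which makes acetyl-CoA from acetate, had 177, 291, 323, 422 and 301 CPM in HF_TZD_KO, against 66.0, 57.5, 78.5, 58.8 and 88.6 CPM in HF_TZD_C (log2 fold change 2.12, SE 0.20, adjusted p 2.2e-05). The lowest HF_TZD_KO liver was well above the highest HF_TZD_C liver. Rdh11, a retinol dehydrogenase regulated by SREBP, had 53.0, 70.1, 96.2, 127 and 93.8 CPM in HF_TZD_KO and 21.5, 21.8, 23.1, 24.3 and 28.5 CPM in HF_TZD_C (log2 fold change 1.89, SE 0.19, adjusted p 3.9e-05). Stard4, a soluble sterol carrier, had 107, 134, 164, 162 and 132 CPM in HF_TZD_KO and 59.9, 61.9, 74.0, 63.4 and 77.2 CPM in HF_TZD_C (log2 fold change 1.06, SE 0.12, adjusted p 8.1e-05). Exons of Acss2 overlap Ggt7, Acss2os and Gss on the opposite strand.

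The last pair overlapped between groups. Tmem97, the sigma-2 receptor, had 78.1 to 109 CPM in HF_TZD_KO and 69.8 to 83.1 CPM in HF_TZD_C (log2 fold change 0.28, SE 0.09, adjusted p 0.0624). It passed with DESeq2, with all 24 libraries in 1 fit, and without replicate 1 or replicate 5 of HF_TZD_KO. Mylip, a ubiquitin ligase for lipoprotein receptors that is a target of the liver X receptors (LXR), had 27.4, 25.3, 22.4, 27.6 and 14.2 CPM in HF_TZD_KO and 27.3, 36.4, 28.4, 32.0 and 28.5 CPM in HF_TZD_C (log2 fold change -0.38, SE 0.16, adjusted p 0.124). Leaving out any 1 of the 10 libraries ended none of the 24 calls.

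**Figure D3:**
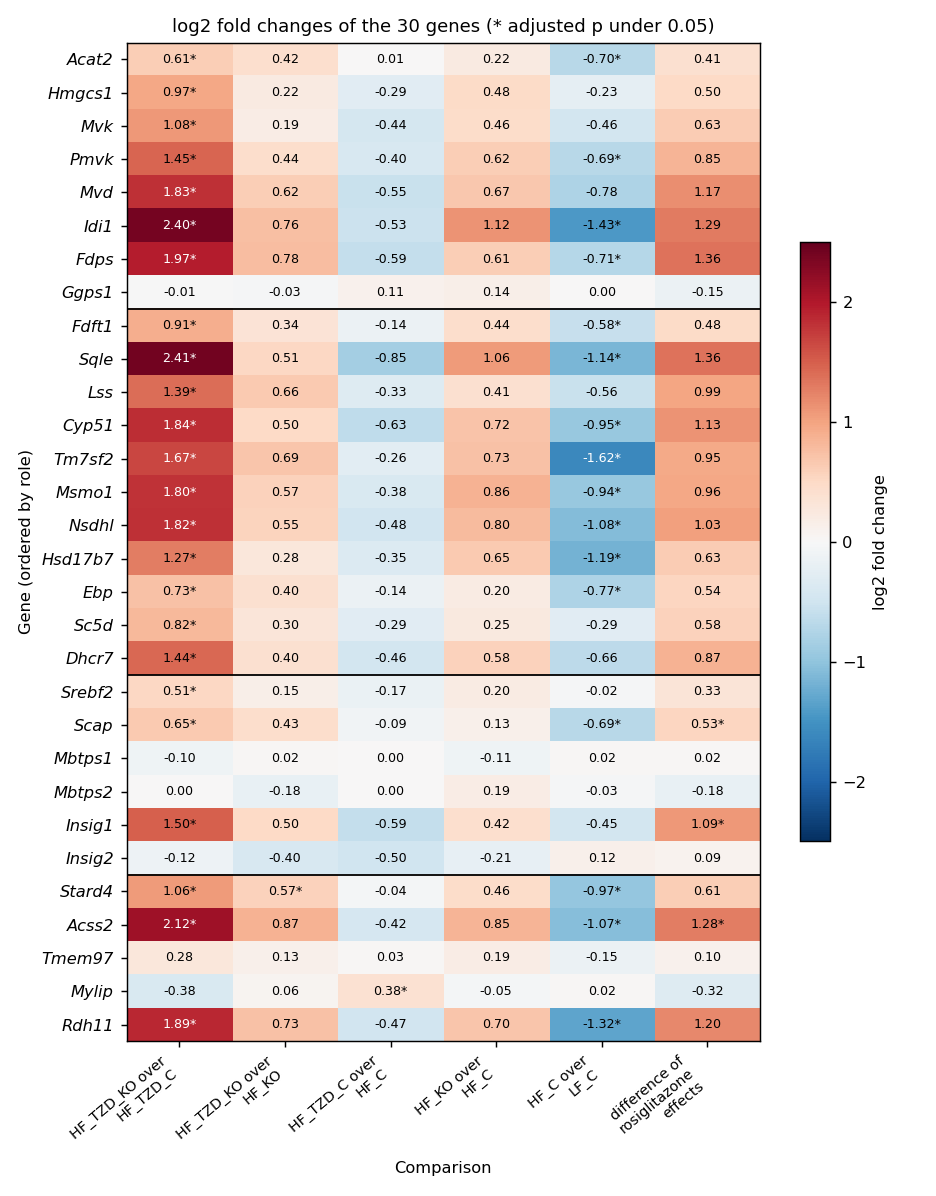
log2 fold changes of the 30 genes (rows, by role) in the 5 pairs of groups and for the difference of the rosiglitazone effects (columns); red is higher in the group named first and an asterisk marks an adjusted p under 0.05. The first column holds 24 asterisks, all on positive values, and the HF_C over LF_C column 16, all on negative values.

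Hepatocyte markers moved in the same comparison. The summed level of 10 hepatocyte marker genes (Alb, Ttr, Apoa1, Cps1, Arg1, Serpina1c, Hnf4a, Tat, Pck1 and Asgr1) ran from 74736 to 107802 CPM in HF_TZD_KO and from 38282 to 48491 CPM in HF_TZD_C. Of these 10 markers 9 rose, with a median log2 fold change of 0.84, and none was at 0. In bulk RNA, fewer cells of a type and less RNA per cell cannot be told apart. Relative to the hepatocyte markers (mean deviation of the 30 genes minus that of the 10 markers), HF_TZD_KO libraries lay at -0.39 to 0.63 and HF_TZD_C libraries at -0.32 to 0.22, so the groups overlapped on that scale. The part of the hepatocyte share in the sterol differences was not tested. The 9 macrophage markers summed to 272 to 741 CPM in HF_TZD_KO and 643 to 906 CPM in HF_TZD_C, with 0 higher and 0 lower. The 10 stellate cell and myofibroblast markers summed to 500.0 to 1294 CPM in HF_TZD_KO and 1244 to 1866 CPM in HF_TZD_C, with 3 lower. The 8 lymphocyte markers summed to 9.18 to 19.3 CPM in HF_TZD_KO and 15.4 to 27.0 CPM in HF_TZD_C, with 1 lower and a list median of -0.60. The 6 endothelial markers summed to 197 to 315 CPM in HF_TZD_KO and 282 to 397 CPM in HF_TZD_C, with 1 lower and a list median of -0.39. Of 4 adipocyte markers in the tables, which summed to 0.41 to 6.5 CPM in HF_TZD_KO and 102 to 205 CPM in HF_TZD_C, the one tested, Cfd, was lower (log2 fold change -5.80, SE 0.49, adjusted p 1.1e-05), while Adipoq was near 0 in both groups. The 7 cholangiocyte markers had 0 higher and 0 lower. The part of these cell types in the sterol values was not tested.

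The letters in front of the 30 genes were searched for the elements known to serve SREBP2. The genes were listed as sterol pathway and SREBP genes, so shares above those of all genes are no result of these data. RefSeq promoters (GRCm38.p6, 250 bases before to 50 after the start) were at hand for 26 of the 30 genes, with no entry for Fdps, Fdft1, Sqle and Stard4. Some genes had several promoters (33 for the 26 genes), and letters in any of them counted. CCAAT, the NF-Y box that works beside SREBP sites, was present on either strand in 22 of 26 genes and in 41.1% of 27025 genes. GGGCGG, the GC box of SP1, was present in 22 of 26 genes and in 38.2% of all genes, and both stood in 1 promoter for 18 of 26 genes against 14.5% of all genes. Among the 20 genes with a promoter that rose in HF_TZD_KO over HF_TZD_C, 18 held CCAAT, and of the 6 with a promoter that were not called, 4 did. CACGTG, an E box, was present in 6 of 26 genes and in 8.1% of all genes. TCACCCCAC, letters of a sterol regulatory element, was present in Hmgcs1 only, against 0.6% of all genes; TCACNCCAC gave the same single gene against 1.4%. SREBP sites vary in their letters, and these windows are short, so the counts describe the letters and not binding.

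The 150 bases directly before the start are shown for Hmgcs1, which holds the sterol regulatory element letters, for the 6 genes with a promoter that changed most in HF_TZD_KO over HF_TZD_C, and for the pair nearest to no change (Mbtps2 and Ggps1). Each runs 5′ to 3′ along the strand of its gene and ends at the base before the RefSeq start. RefSeq starts can differ from those of the genes as counted. By the coordinates of the counts, the windows of Idi1, Acss2 and Cyp51 lie partly inside the gene, and that of Rdh11 wholly. Capitals mark CCAAT or its reverse complement ATTGG and, in Hmgcs1, TCACCCCAC. The windows are chr13:119690201-119690350 (plus strand) for Hmgcs1, chr13:8885456-8885605 (plus strand) for Idi1, chr2:155517893-155518042 (plus strand) for Acss2, chr12:79190962-79191111 (minus strand) for Rdh11, chr5:4104698-4104847 (minus strand) for Cyp51, chr8:122443423-122443572 (minus strand) for Mvd, chrX:72918371-72918520 (plus strand) for Nsdhl, chrX:157598716-157598865 (minus strand) for Mbtps2 and chr13:14063489-14063638 (minus strand) for Ggps1.
Hmgcs1: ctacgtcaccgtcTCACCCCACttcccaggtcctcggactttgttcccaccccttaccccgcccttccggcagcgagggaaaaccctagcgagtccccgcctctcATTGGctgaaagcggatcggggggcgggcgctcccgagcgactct
Idi1: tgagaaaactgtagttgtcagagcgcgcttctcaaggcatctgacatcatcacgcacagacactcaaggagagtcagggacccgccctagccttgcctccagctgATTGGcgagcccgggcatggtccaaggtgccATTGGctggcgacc
Acss2: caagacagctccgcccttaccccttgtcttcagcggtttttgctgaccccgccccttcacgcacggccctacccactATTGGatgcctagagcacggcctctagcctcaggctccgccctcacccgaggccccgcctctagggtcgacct
Rdh11: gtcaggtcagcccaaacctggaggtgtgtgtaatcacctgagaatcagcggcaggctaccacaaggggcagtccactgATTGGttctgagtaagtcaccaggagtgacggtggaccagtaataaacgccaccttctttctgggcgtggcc
Cyp51: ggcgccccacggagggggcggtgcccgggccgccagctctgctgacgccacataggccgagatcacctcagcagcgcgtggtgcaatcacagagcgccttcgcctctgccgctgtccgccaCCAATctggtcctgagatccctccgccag
Mvd: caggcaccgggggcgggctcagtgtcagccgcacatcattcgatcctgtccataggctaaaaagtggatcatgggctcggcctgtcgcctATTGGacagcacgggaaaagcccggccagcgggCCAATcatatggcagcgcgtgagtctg
Nsdhl: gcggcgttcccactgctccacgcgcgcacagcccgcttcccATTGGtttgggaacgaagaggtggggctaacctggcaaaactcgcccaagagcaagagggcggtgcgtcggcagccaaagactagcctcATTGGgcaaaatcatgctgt
Mbtps2: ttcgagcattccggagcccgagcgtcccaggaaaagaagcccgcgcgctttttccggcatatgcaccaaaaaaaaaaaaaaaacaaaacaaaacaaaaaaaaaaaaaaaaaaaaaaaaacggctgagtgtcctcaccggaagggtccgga
Ggps1: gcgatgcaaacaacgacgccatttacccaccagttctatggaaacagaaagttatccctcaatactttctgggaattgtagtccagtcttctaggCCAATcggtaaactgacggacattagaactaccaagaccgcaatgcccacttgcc

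In these windows Hmgcs1 carries its sterol regulatory element letters 137 bases and a CCAAT box 45 bases before the start. Idi1 has CCAAT boxes 45 and 14 bases before the start, Mvd 60 and 27, and Nsdhl 109 and 20. Acss2, Rdh11 and Cyp51 have 1 each, at 73, 72 and 29 bases. Ggps1, with a log2 fold change of -0.01, also has 1, at 55 bases, and Mbtps2 has none within the window.

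Genes of 4 neighbouring pathways were counted in HF_TZD_KO over HF_TZD_C. Of 12 genes of the other isoprenoid branches (ubiquinone, dolichol and prenylation), 0 rose and 2 fell: Icmt, which methylates prenylated proteins, by 0.33 (SE 0.06, adjusted p 0.00309), and Rce1, a protease of prenylated proteins, by 0.34 (SE 0.09, adjusted p 0.0245). Of 12 sterol efflux and LXR genes, Soat2, which esterifies cholesterol, rose (log2 fold change 0.31, SE 0.08, adjusted p 0.0228). The sterol exporter Abcg1 fell (log2 fold change -0.99, SE 0.23, adjusted p 0.0115). Of 11 genes of fatty acid synthesis and SREBP1, 4 rose and 0 fell, and 9 had positive log2 fold changes. They were Acly at 1.97 (SE 0.25, adjusted p 1.8e-04), Pnpla3 at 1.77 (SE 0.26), Acacb at 0.98 (SE 0.18) and Elovl6 at 0.98 (SE 0.28). Acly, ATP citrate lyase, supplies acetyl-CoA to both fatty acid and sterol synthesis. Of 10 tested genes that serve the degradation of sterol enzymes in the endoplasmic reticulum, the ubiquitin ligase Rnf139 rose by 0.39 (SE 0.08) and the ligase Rnf145 fell by 0.50 (SE 0.08). The medians of these 4 lists were -0.04, -0.04, 0.39 and -0.03, against 0.00 over all genes tested.

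Without rosiglitazone, the knockout label was compared in HF_KO and HF_C. Of the 30 genes, 0 passed in either direction, where 0.485% of 14844 genes were higher, 0.539% lower and 1.02% called in either direction; 23 of the 30 had an unadjusted p under 0.05 with higher values in HF_KO, and 1, Mbtps1, with lower. DESeq2 called 3 higher. The log2 fold change was positive in 27 of 30 genes, with a median of 0.46 over the 30 and 0.00 over all genes tested. Idi1 had 45.8, 21.2, 46.8, 50 and 28.1 CPM in HF_KO and 10.6, 28.8, 20, 13.4 and 16.1 CPM in HF_C livers (1.12 as log2 fold change, SE 0.27, adjusted p 0.0792). Sqle had 55.3, 31.8, 63.4, 77.7 and 43.0 CPM in HF_KO and 14.4, 46.9, 29.2, 20 and 20.4 CPM in HF_C livers (1.06 as log2 fold change, SE 0.29, adjusted p 0.126). In both genes replicate 2 of HF_C was the sole control above any HF_KO liver, and replicate 2 of HF_KO was the lowest of its group.

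The absence of calls depended mainly on replicate 2 of HF_C. That library stood out by its high values in these same genes, so leaving it out raises their differences and gives no separate support. Without replicate 2 of HF_C, 14 of the 30 genes were higher in HF_KO, where 1.24% of all genes were called in either direction, and the median log2 fold change was 0.60. The 14 were Mvd, Idi1, Sqle, Lss, Cyp51, Tm7sf2, Msmo1, Nsdhl, Hsd17b7, Dhcr7, Insig1, Stard4, Acss2 and Rdh11. Among them, Sqle had an estimate of 1.37 on the log2 scale (SE 0.24, adjusted p 0.0156), Idi1 of 1.35 (SE 0.25, adjusted p 0.0202), Acss2 of 1.13 (SE 0.18, adjusted p 0.0101) and Hsd17b7 of 0.81 (SE 0.11, adjusted p 0.0050). Without replicate 2 of HF_KO, Idi1 alone of the 30 was called, where 0.546% of all genes were. Without any 1 of the other 8 libraries none of the 30 was. All 5 HF_KO livers were above the HF_C mean for Sqle, Idi1, Acss2, Msmo1 and Nsdhl, with all libraries kept. Replicate 2 of HF_C had the highest hepatocyte marker sum of its group, 54524 CPM against 45777 to 50974 CPM in the other HF_C livers. By mean deviation of the markers it was not the highest, at -0.11 against -0.09 in replicate 5 of HF_C. Nothing in the labels sets it apart.

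**Figure D4:**
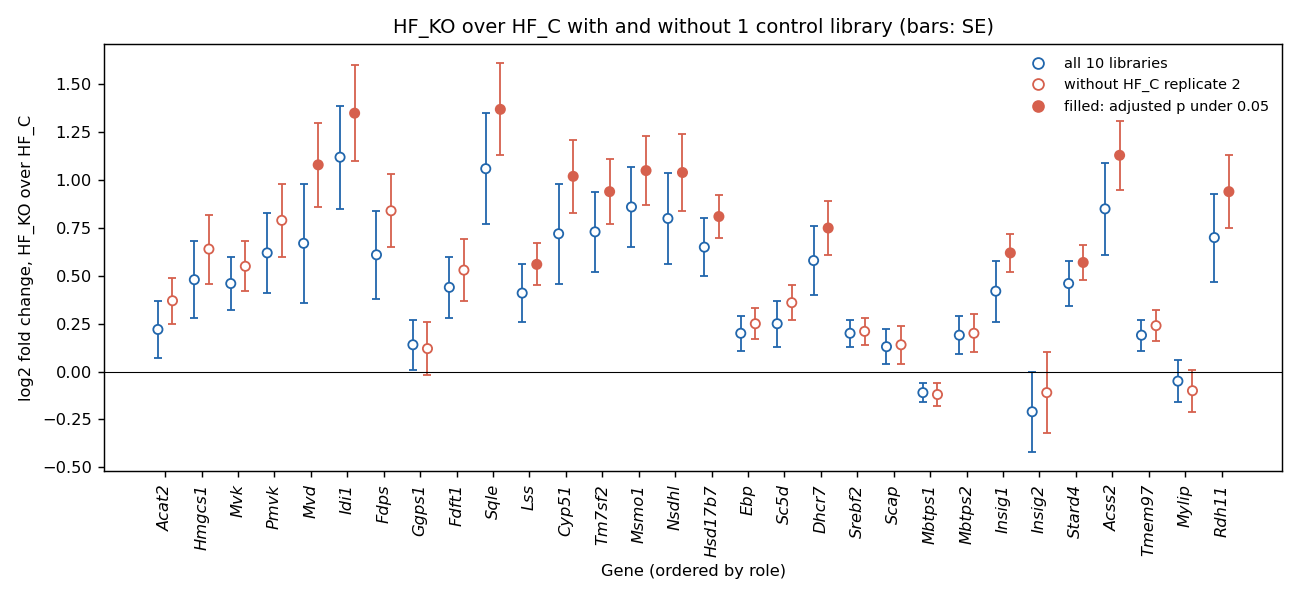
log2 fold change of HF_KO over HF_C (vertical axis, bars are SE) for the 30 genes, with all 10 libraries (left point of each pair) and without replicate 2 of HF_C (right point). Filled points mark an adjusted p under 0.05: 0 with all libraries and 14 without that library.

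With all libraries kept, none of the 6 machinery genes passed in HF_KO over HF_C. Insig1 had 201, 189, 209, 224 and 191 CPM in HF_KO and 118, 234, 153, 111 and 147 CPM in HF_C livers (0.42 as log2 fold change, SE 0.16, adjusted p 0.323). Srebf2 had a log2 fold change of 0.20 (SE 0.07) and Scap of 0.13 (SE 0.09). Mbtps1, the site-1 protease, had 85.6, 80.4, 86.0, 87.5 and 87.5 CPM in HF_KO against 93.2, 92.2, 97.5, 88.5 and 92.2 CPM in HF_C. All of its HF_KO livers lay below all HF_C livers, as in 1.49% of genes tested, but the difference was small (log2 fold change -0.11, SE 0.05, adjusted p 0.428). None of the 10 hepatocyte markers and none of the genes in the 4 neighbouring lists passed in this comparison. The adipocyte marker Cfd fell by 5.77 (SE 0.63, adjusted p 5.2e-04). Hepatocyte markers summed to 57476 to 66848 CPM in HF_KO and 45777 to 54524 CPM in HF_C, without overlap. Most of that sum was Alb, at 4.27% to 5.06% of the scaled counts in HF_KO and 3.28% to 4.0% in HF_C. The list median was 0.12, with log2 fold changes from -0.36 to 0.49. Mean marker deviations overlapped, at -0.27 to 0.07 in HF_KO and -0.36 to -0.09 in HF_C. The part of the hepatocyte markers in the sterol values was not tested.

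The effect of rosiglitazone was tested separately in controls and in mice labelled knockout. In HF_TZD_C over HF_C, 1 of the 30 genes was higher, where 2.69% of 14937 genes were, and 0 were lower, where 2.61% were. The gene was Mylip, with 27.3, 36.4, 28.4, 32.0 and 28.5 CPM in HF_TZD_C against 25.8, 20.1, 25.2, 21.8 and 24.0 CPM in HF_C. All of its HF_TZD_C livers were above all HF_C livers, as in 2.92% of genes tested (log2 fold change 0.38, SE 0.09, adjusted p 0.0296). That call ended without replicate 2, 4 or 5 of HF_C or replicate 2 or 4 of HF_TZD_C. Most of the 30 genes had values on the other side: the log2 fold change was negative in 24 of them, including all 11 enzymes from squalene to cholesterol and 6 of 8 mevalonate and isoprenoid enzymes. The median over the 30 was -0.34 against -0.01 over all genes tested, and 16 genes had an unadjusted p under 0.05 with lower values in HF_TZD_C.

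The lowest of these values belonged to Sqle, with 15.2, 12.3, 13.3, 14.2 and 17.4 CPM in HF_TZD_C and 14.4, 46.9, 29.2, 20 and 20.4 CPM in HF_C livers (-0.85 as log2 fold change, SE 0.25, adjusted p 0.0692). Mvk had 6.80 to 9.38 CPM in HF_TZD_C and 9.55 to 14.0 CPM in HF_C, without overlap (3.15% of genes tested lay below in this way) but short of the test's threshold (log2 fold change -0.44, SE 0.12, adjusted p 0.0562). Insig1 came to -0.59 (SE 0.18, adjusted p 0.0785). Replicate 2 of HF_C carried part of this lean: without it the median was -0.16. In that fit none of the sterol genes was called, while 4.74% of all genes tested were called in either direction. Of 10 hepatocyte markers, 2 fell in HF_TZD_C over HF_C, with a list median of -0.22. Among the neighbouring genes, the ligases Rnf145 (log2 fold change 0.42, SE 0.06, adjusted p 0.00105) and March6 (0.30, SE 0.07, adjusted p 0.0208) rose. Acly fell by 0.92 (SE 0.25, adjusted p 0.0457), while Thrsp, a lipogenic regulator, rose by 0.86 (SE 0.21, adjusted p 0.0267).

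In HF_TZD_KO over HF_KO, 1 of the 30 genes was higher, where 0.426% of 14559 genes were, and 0 were lower, where 0.309% were. The gene was Stard4, with 107, 134, 164, 162 and 132 CPM in HF_TZD_KO and 98.9, 90.9, 108, 96.1 and 80.0 CPM in HF_KO (log2 fold change 0.57, SE 0.12, adjusted p 0.0487). Its groups touched, since replicate 1 of HF_TZD_KO was just under the highest HF_KO liver. The call ended without any 1 of the 5 HF_KO libraries and without replicate 2, 3 or 4 of HF_TZD_KO. No gene of all tested passed without replicate 2, 3, 4 or 5 of HF_KO or replicate 2 or 4 of HF_TZD_KO. Without replicate 1 of HF_TZD_KO, 4 of the 30 genes were called higher: Stard4, Acss2, Scap and Tm7sf2. The share of all genes called in either direction was then 1.51%, against 0.735% with all libraries. With all libraries the log2 fold change was positive in 27 of 30 genes, the median was 0.43 against 0.00 over all genes, and 14 had an unadjusted p under 0.05. Without replicate 4 of HF_TZD_KO the median was 0.24, and without replicate 2 of HF_KO it was 0.34. In both of these fits 0 of the 30 genes and 0% of all genes tested were called. Without replicate 1 of HF_TZD_KO the median was 0.52 with 4 of the 30 called. Acss2 had 177, 291, 323, 422 and 301 CPM in HF_TZD_KO and 143, 115, 212, 192 and 173 CPM in HF_KO (log2 fold change 0.87, SE 0.21, adjusted p 0.0731). Its log2 fold change was 0.71 without replicate 4 of HF_TZD_KO and 0.75 without replicate 2 of HF_KO, and without replicate 1 of HF_TZD_KO it was 1.01 and passed (adjusted p 0.0239). Hepatocyte markers had a list median of 0.52, with 2 of 10 higher, and of the SREBP1 genes Thrsp and Pnpla3 rose, by 1.22 (SE 0.23) and 1.39 (SE 0.28).

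Whether rosiglitazone acted differently by label was tested as the difference of these effects, that in libraries labelled knockout minus that in controls, in 1 fit of the 20 HFCF libraries. Of the 30 genes, 3 had a higher effect in libraries labelled knockout and 0 a lower one, where 1.56% of 15365 genes had a higher one and 0.892% a lower one. Insig1 had a difference of 1.09 (SE 0.29, adjusted p 0.0455), beside 0.50 in HF_TZD_KO over HF_KO and -0.59 in HF_TZD_C over HF_C. Acss2 had a difference of 1.28 (SE 0.34, adjusted p 0.0471), beside 0.87 and -0.42. Scap had a difference of 0.53 (SE 0.14, adjusted p 0.0471), beside 0.43 and -0.09. The difference was positive in 27 of 30 genes, with a median of 0.63 against 0.01 over all genes tested, and 21 genes had an unadjusted p under 0.05. The larger differences of Sqle at 1.36 (SE 0.44, adjusted p 0.109) and Fdps at 1.36 (SE 0.38, adjusted p 0.0602) did not pass.

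These 3 calls lay close to the threshold and depended on single libraries. None of the sterol genes was called without replicate 2 or 5 of HF_C or replicate 1, 2 or 5 of HF_KO. The same held without replicate 2, 3 or 4 of HF_TZD_C, or replicate 3 or 4 of HF_TZD_KO. There was 1 call without replicate 4 of HF_C, replicate 3 of HF_KO, replicate 1 of HF_TZD_C or replicate 2 of HF_TZD_KO. There were 5 without replicate 1 of HF_C and 11 without replicate 1 of HF_TZD_KO, among them Fdps, Lss, Dhcr7 and Rdh11. Of all genes, 3.01% were called in either direction without replicate 1 of HF_TZD_KO, against 2.45% with all libraries. The lowest share with any 1 library left out was 1.23%. Of the 10 hepatocyte markers, 6 had a higher effect in libraries labelled knockout, with a list median of 0.70; their part in the 3 calls was not tested.

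The effect of the HFCF diet was compared in control mice without drug. In HF_C over LF_C, 0 of the 30 genes were higher and 16 lower, in a comparison where 21.4% of 14772 genes were higher and 19.2% lower. The median log2 fold change was -0.69 over the 30 genes and -0.03 over all genes tested. By role, 4 of 8 mevalonate and isoprenoid enzymes fell, 8 of 11 enzymes from squalene to cholesterol, 1 of 6 machinery genes and 3 of 5 other targets. In Tm7sf2, Ebp, Scap and Rdh11 every HF_C liver was below every LF_C liver, a pattern seen in 14.6% of all genes tested.

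Tm7sf2 fell most, with 28.1, 62.9, 33.7, 36.6 and 42.1 CPM in HF_C against 127, 89.4, 131 and 148 CPM in LF_C livers (-1.62 as log2 fold change, SE 0.21, adjusted p 1.2e-04). Idi1 had 10.6, 28.8, 20, 13.4 and 16.1 CPM in HF_C and 66.5, 41.3, 64.9 and 17 CPM in LF_C livers (-1.43 as log2 fold change, SE 0.36, adjusted p 0.00742). Replicate 4 of LF_C lay among the HF_C livers for Idi1 but was the highest LF_C liver for Tm7sf2. Rdh11 had 23.5, 54.1, 26.8, 27.0 and 33.8 CPM in HF_C and 104, 65.7, 101 and 57.0 CPM in LF_C livers (-1.32 as log2 fold change, SE 0.25, adjusted p 0.0013). Scap had 89.3, 84.1, 73.4, 83.6 and 77.6 CPM in HF_C and 145, 107, 138 and 132 CPM in LF_C livers (-0.69 as log2 fold change, SE 0.10, adjusted p 2.1e-04).

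Several regulated genes did not pass in the diet comparison. Hmgcs1 had 166, 301, 189, 198 and 191 CPM in HF_C and 302, 231, 319 and 116 CPM in LF_C livers (-0.23 as log2 fold change, SE 0.26, adjusted p 0.51). Insig1 came to -0.45 (SE 0.27, adjusted p 0.211), Mvd to -0.78 (SE 0.47, adjusted p 0.207) and Srebf2 to -0.02 (SE 0.12, adjusted p 0.903). Without replicate 4 of LF_C, 21 of the 30 genes were lower and the median was -0.79, where 40.8% of all genes were called in either direction. Without replicate 1 or 3 of LF_C, or replicate 1, 3, 4 or 5 of HF_C, 11 of the 30 were lower, where at least 34.6% of all genes were called. The calls of Fdps, Sqle, Cyp51 and Msmo1 ended in those 6 cases, and that of Pmvk in these and without replicate 2 of LF_C. Scaling by library totals alone moved the median of all genes to 0.24 and left 9 of the 30 lower, with 1 higher.

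Markers of liver cell types also moved with the diet. Hepatocyte markers summed to 45777 to 54524 CPM in HF_C and 78733 to 113294 CPM in LF_C, and 9 of 10 fell, with a list median of -0.95. Cholangiocyte markers rose in 7 of 7, with sums of 581 to 1296 CPM in HF_C and 67.5 to 115 CPM in LF_C. Stellate cell and myofibroblast markers rose in 9 of 10, with sums of 1125 to 1604 CPM in HF_C and 389 to 486 CPM in LF_C. Of 9 macrophage markers 6 rose and 2 fell (list median 1.13), with sums of 491 to 864 CPM in HF_C and 254 to 483 CPM in LF_C. Of 8 lymphocyte markers 4 rose (list median 0.90), with sums of 15 to 28.2 CPM in HF_C and 6.43 to 8.69 CPM in LF_C. Of 6 endothelial markers 2 fell, and the one adipocyte marker tested, Cfd, rose by 5.52 (SE 0.75, adjusted p 1.6e-04). Replicate 4 of LF_C, low in the sterol genes, had the highest hepatocyte marker sum of all libraries. The part of cell composition in the sterol values was not tested. Of the 12 sterol efflux and LXR genes, 3 rose and 3 fell in HF_C over LF_C, with a list median of -0.02. Lcat, which esterifies cholesterol in plasma, fell by 0.87 (SE 0.12, adjusted p 2.0e-04), while Abcg1 rose by 1.34 (SE 0.19, adjusted p 2.1e-04) and Soat1, the cholesterol esterifying enzyme of macrophages and other cells, by 1.13 (SE 0.20, adjusted p 0.00101). Of the 11 SREBP1 genes, Thrsp and Acacb fell and 0 rose. Of the 12 genes of the other isoprenoid branches 1 rose and 1 fell, and of the 10 degradation genes 1 rose and 2 fell.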

How the data were processed

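Whole liver RNA was extracted with Trizol and sequenced without strand information, per the labels' protocols. Per the submitters' processing notes, the tools were STAR 2.6.1, HTSeq 0.6.1 and DESeq2 with GRCm38; the annotation release is not given in the sources used here. The authors deposited 5 tables, each for a pair of groups, with whole-number read counts per gene and FPKM (counts scaled by gene length and library reads, by the authors). Tables were joined by gene identifier, and 0 counts differed between them; 0 columns belonged to other samples. Libraries held 19502150 to 28742638 counted reads.

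Each comparison was fitted on all genes of its groups in R 4.3.3 with edgeR 4.0.16: filterByExpr (minimum count 10, total 15), TMM scaling, two-sided quasi-likelihood test, Benjamini-Hochberg adjusted p under 0.05. All 30 genes passed the filter in every comparison. SE is the log2 fold change over the square root of F. CPM values used TMM over 24 libraries, and library deviations used log2 CPM with a prior count of 2. The difference of the rosiglitazone effects used the 20 HFCF libraries. Alternatives were RLE scaling, library totals alone, no filter, DESeq2 1.42.0, all 24 libraries, a replicate block and leaving out each library. The edgeR script was tested on simulated data. Replicate pairs differed beyond counting error (chi-square per degree of freedom 10.9 to 67.7).

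The rule for named genes took all 30, with at most 4 per neighbouring list by smallest adjusted p. The members and lists were chosen with earlier results of these data known. Ufd1 and Marchf6, listed among the degradation genes, were not matched in the tables. Each p-value sets a difference between groups against the spread between mice, as estimated in its fit.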

Additional observations from a re-analysis of the deposited data

Results flagged for a closer look

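In 150 sets of 1 gene and 1 group, 7 had a library far from the others of its group (Dixon's 95% criterion), and chance alone flags about 1 in 20 such sets. Replicate 2 of HF_C was far above the rest in 3 genes. It had 301 CPM of Hmgcs1 against 166 to 198 CPM in the other HF_C livers, 19.6 CPM of Mvd against 5.88 to 8.58 CPM, and 64.4 CPM of Hsd17b7 against 36.5 to 42.8 CPM. Replicate 2 of HF_KO was far below the rest in Fdps, with 134 CPM against 250.0 to 287 CPM, and in Mbtps1, with 80.4 CPM against 85.6 to 87.5 CPM. Replicate 5 of HF_TZD_C had 40.5 CPM of Hsd17b7 against 33.1 to 34.6 CPM in the others. Replicate 1 of HF_TZD_KO had 88.6 CPM of Scap against 123 to 132 CPM in the others.

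By the edgeR test of the difference of rosiglitazone effects, 3 of the 30 genes were called: Scap at 0.53 on the log2 scale, Insig1 at 1.09 and Acss2 at 1.28. Of all genes, 1.56% had a higher effect in libraries labelled knockout and 0.892% a lower one. Adjusted p was 0.0455 to 0.0471. Each call ended in 15 or 17 of the 20 fits with 1 library left out. Each also ended with library totals alone, with all 24 libraries in 1 fit and with the replicate block.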

How the results depend on the processing

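Under the alternatives tried, no direction of a called gene reversed. The 24 genes called higher in HF_TZD_KO over HF_TZD_C ranged from 24 to 25 when single libraries were left out. In those fits 10.7% to 18.3% of all genes were called in either direction. With library totals alone, 1 gene was lower there; 0 were higher in HF_TZD_KO over HF_KO and 0 in the difference of rosiglitazone effects; 1 was higher in HF_KO over HF_C; and 9 were lower and 1 higher in HF_C over LF_C. That scaling moved the median of all genes to -0.16, -0.11, -0.12 and 0.24 in HF_TZD_KO over HF_TZD_C, HF_TZD_KO over HF_KO, the difference and HF_C over LF_C, and turned the split of all calls to 740 higher and 2916 lower in the first (1246 and 1141 with TMM) and 5309 and 886 in the last (3168 and 2835). In HF_TZD_KO over HF_KO it gave 51 higher and 169 lower (62 and 45 with TMM), in the difference 163 and 387 (239 and 137), and in HF_KO over HF_C 56 and 118 (72 and 80). With no filter, 3 genes were higher in HF_KO over HF_C, 2 lower in HF_TZD_C over HF_C and 2 higher in HF_TZD_KO over HF_KO. DESeq2 gave 3, 2 and 6 in the same comparisons and 12 in the difference. With all 24 libraries in 1 fit, 0 were higher in HF_TZD_C over HF_C and 0 in the difference; in HF_TZD_KO over HF_KO the call of Stard4 ended (adjusted p 0.0507) and Scap was called in its place (adjusted p 0.0266). The cause of these shifts was not tested. When each library was left out, calls ran from 11 to 21 lower in HF_C over LF_C, 0 to 14 higher in HF_KO over HF_C, 0 to 1 higher and 0 to 1 lower in HF_TZD_C over HF_C, 0 to 4 higher in HF_TZD_KO over HF_KO and 0 to 11 higher in the difference. Shares of all genes called ran from 34.6% to 40.8%, 0.427% to 1.24%, 3.3% to 6.19%, 0% to 1.51% and 1.23% to 3.01% in the same order. The share of all genes called moved by over 1.5 times with no filter in HF_C over LF_C (26% against 40.6%), HF_TZD_C over HF_C (3.47% against 5.3%), HF_TZD_KO over HF_TZD_C (9.87% against 16.3%) and the difference (1.33% against 2.45%). It was 1.02% in HF_KO over HF_C and 0.735% in HF_TZD_KO over HF_KO with the settings used throughout. With DESeq2 it moved to 2.61% in HF_KO over HF_C, 8.44% in HF_TZD_C over HF_C, 4.6% in HF_TZD_KO over HF_KO and 4.72% in the difference. With all libraries it moved to 0.575%, 2.47%, 2.81% and 1.29% in these 4. With totals alone it was 1.51% in HF_TZD_KO over HF_KO and 25% in HF_TZD_KO over HF_TZD_C.

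Same-numbered libraries did not deviate together throughout: correlations of their deviations ran from -0.32 up to 0.31, with at least 1 below 0 in every comparison. The closest library of the other group had the same number for 2 libraries in HF_KO over HF_C. In each other comparison this held for 0 or 1. With 4 or 5 pairs per comparison, these values cannot settle whether mice were paired. With the replicate block, 11 of the 30 genes were lower in HF_C over LF_C, where 30.4% of all genes were called in either direction. In HF_TZD_C over HF_C, HF_TZD_KO over HF_KO and the difference, 0 of the 30 were higher. Of all genes, 2.58%, 0% and 1.54% were called in those 3.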
